A study of Mus musculus with 8 samples.

Results

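EpH4 and NMuMG are 2 established lines of mouse mammary gland epithelial cells, and the data describe how their gene expression differed both at rest and after stimulation. Of the 8 arrays of the series, the 4 arrays of these lines were chosen by their titles: resting EpH4, stimulated EpH4, resting NMuMG and stimulated NMuMG, with 1 array each. The other 4 arrays came from the kidney tubular lines mProx and MCT in the same 2 states. All cells had been seeded in medium with 10% serum overnight and then kept for 24 h in K-1 medium, which contains transferrin and insulin. Stimulated cells then had 24 h in K-1 medium with recombinant human forms of both TGF-β1 and EGF, each at 3 ng/mL, and resting cells were kept without them. The labels mark EpH4, but not NMuMG, as resistant to epithelial-mesenchymal transition (EMT). Total RNA was measured on a whole-genome Affymetrix mouse array.

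An epithelial cell is held to its neighbours by tight junctions, adherens junctions and desmosomes, and its cytoskeleton is built on keratins. In EMT such cells lose junction proteins and gain vimentin, N-cadherin and matrix proteins, under transcription factors of the ZEB, SNAIL and TWIST families. TGF-β is a classical inducer of this change, and EGF receptor signalling through ERK often adds to it. The mammary gland holds luminal cells, which make milk, and basal or myoepithelial cells, which contract around them.

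Levels below are log2(signal + 10.6) after quantile normalization, and pairs of values are always given resting first and stimulated second. A level under 5.27, the filter level, is called dim. It is not an exact size, so a fold against a dim value is given as "at least", with the dim value raised to the filter level. Of 18193 genes with a probe set, 12570 passed the filter and were tested with limma in a model with 1 term per line and 1 for stimulation. A gene was called where its Benjamini-Hochberg adjusted p was under 0.05 and the lines differed by at least 2-fold the same way in both states. The residual spread, with 3 degrees of freedom, measures how unevenly the 4 lines responded and not how repeat cultures vary, since each line and state has 1 array. The 2-fold rule rather than the p-value decided nearly all calls: of 1553 genes at least 2-fold higher in EpH4 in both states 1543 were called, and of 1080 higher in NMuMG 1071 were.

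Called genes thus numbered 1543 higher in EpH4, 12.3% of those tested, and 1071 higher in NMuMG, 8.52%. These 2 percentages are the background against which the counts of gene groups below should be read. Between the kidney lines mProx and MCT 1004 genes, 7.99%, were called in either direction by the same rule. The SD of the line difference across tested genes was 1.27 at rest and 1.22 after stimulation, against 0.356 for the response of EpH4 to stimulation and 0.49 for that of NMuMG. The resting and the stimulated difference correlated across genes at r = 0.895, which describes these 4 arrays only, as genes are not independent replicates and the 2 arrays of a line share its cells. Of 3758 genes that differed at least 2-fold at rest, 2633 did so in the same direction after stimulation, or 70.1%, and these were 75.7% of the 3477 that differed after stimulation. The direction of the calls depended on scaling. The median difference of all tested genes was 0.13 after quantile normalization, with 59.0% of calls higher in EpH4, against 0.38 and 74.7% with arrays scaled to a common median and 0.58 and 80.5% on the values as deposited.

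**Figure D1:**
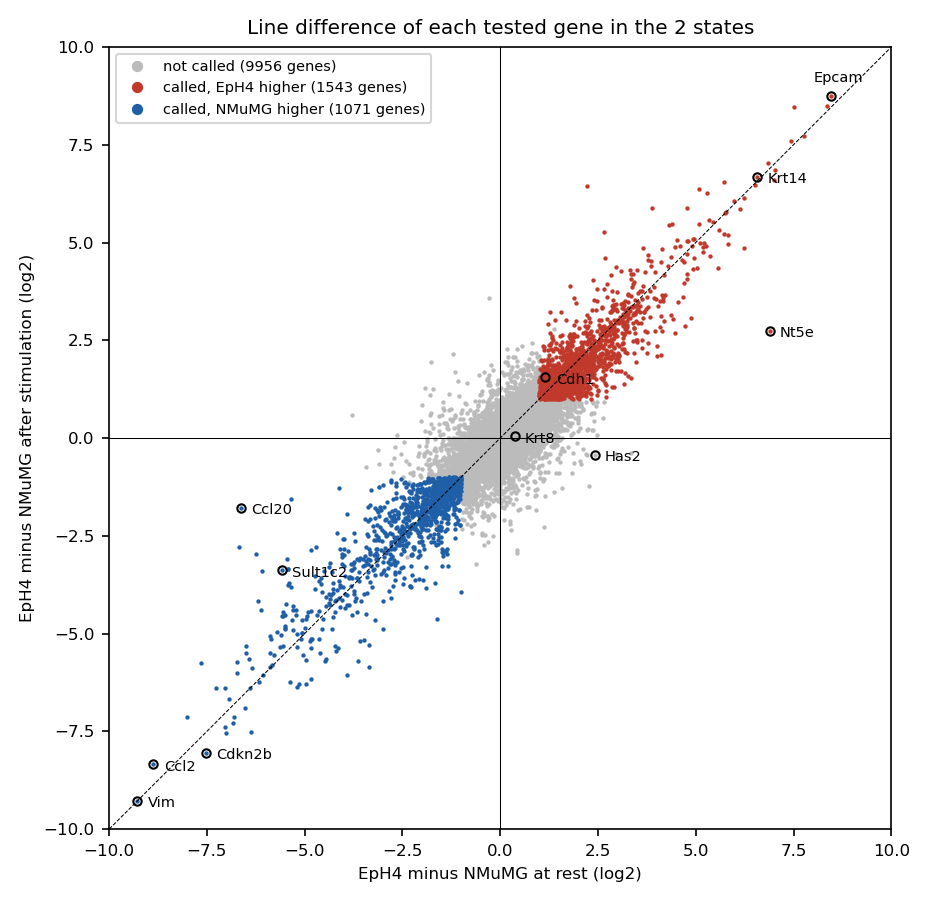
Each point is 1 tested gene, with the EpH4 minus NMuMG difference at rest on the horizontal axis and after stimulation on the vertical axis, both in log2. Called genes lie along the dashed line of equal differences, from Vim at the lower left to Epcam at the upper right. Has2 is an example of a gene that differed in 1 state, although its resting NMuMG value was dim.

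Both lines carried epithelial markers. Krt8 and Krt18, the paired keratins of simple epithelia, were at 12.33 and 12.63 (Krt8) in EpH4 against 11.96 and 12.58 in NMuMG, and at 12.41 and 12.80 (Krt18) against 12.86 and 13.14, and neither gene was called (limma adjusted p = 0.456 and 0.200). Elf3, an epithelial ETS factor, was at 8.03 and 7.65 in EpH4 and at 7.96 and 7.59 in NMuMG. Of 12 luminal epithelial markers 11 were not dim in EpH4 and 8 were not dim in NMuMG, and 7 were called higher in EpH4 and 1 in NMuMG. Their summed signals were 44129 and 50177 in EpH4 and 19025 and 23339 in NMuMG. Defining markers of the mature gland were dim in both lines, namely the milk protein gene Csn2 (4.34 and 3.69 in EpH4, 4.28 and 3.66 in NMuMG) and the alveolar factor gene Elf5 (4.09 and 3.91, 3.79 and 4.48). The basal markers Trp63, Acta2 and Myh11 were dim on all 4 arrays with the exception of Trp63 in resting NMuMG, at 5.82. Of 10 basal epithelial markers 5 were tested and 3 of them, Krt14, Itgb4 and Sfn, were called higher in EpH4. The summed signals of the 10 were 2077 and 4255 in EpH4 and 250 and 240 in NMuMG. Of markers of other cell types, called genes were 0 of 5 tested for fibroblasts, 0 of 3 for endothelium and 0 of 7 for leukocytes, the leukocyte gene Ptprc being dim throughout. Summed signals of the leukocyte markers were 596 and 608 in EpH4 and 443 and 531 in NMuMG. Among adipocyte, smooth muscle, proximal tubule and neural markers 1 gene each was called, of 2, 5, 6 and 4 tested. The summed smooth muscle signals were 618 and 723 in EpH4 and 1119 and 2058 in NMuMG, and the neural ones 469 and 399 against 1029 and 1696. The part of these markers in the results was not tested. In bulk RNA, fewer cells of a type and less RNA per cell cannot be told apart.

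Cell-cell junction genes were mostly called in the direction of EpH4. Of 32 tested genes of adherens and tight junctions, 14 were called higher in EpH4 and 2 higher in NMuMG, with a median difference of 0.75 against 0.13 over all tested genes. Epcam, the epithelial adhesion molecule, was at 12.35 and 12.70 in EpH4 and at 3.90 and 3.95 in NMuMG. Both EpH4 arrays were near the top of the scale and both NMuMG arrays near its floor. The difference was 8.60 ± 0.22 (SE; adjusted p = 5.70e-07), or at least 153-fold. Cldn3, a barrier-forming claudin, was at 11.92 and 11.84 against 4.15 and 4.10, which made it at least 97.8-fold higher. Cldn7, a claudin of basolateral membranes that binds EpCAM, was at 11.58 and 11.63 against 5.07 and 5.15. Nectin4, a nectin of adherens junctions, was at 9.71 and 10.46 against 4.38 and 4.88. Marveld2, which encodes tricellulin of tricellular contacts, was at 8.91 and 8.80 against 3.71 and 3.80. In each of these genes both EpH4 values lay far above both NMuMG values, and the NMuMG values were dim.

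Cdh1, encoding E-cadherin, did not follow this all-or-none pattern. It was at 11.84 and 11.61 in EpH4 and at 10.69 and 10.06 in NMuMG, a difference of 1.35 ± 0.29 (adjusted p = 0.00558). The groups did not overlap, but the call was lost when the resting EpH4 or the stimulated NMuMG array was left out and when limma's treat tested against a 2-fold difference. In both kidney lines Cdh1 was dim on all 4 arrays. Cldn2, the claudin of leaky, cation-selective epithelia, went the other way, at 5.58 and 5.53 in EpH4 and 11.13 and 9.98 in NMuMG, 32.0-fold higher in NMuMG. Tjp1, encoding the scaffold ZO-1, was at 11.09 and 10.93 against 11.37 and 11.16 and was not called, and neither was Ctnnb1, encoding β-catenin, at 12.50 and 12.53 against 12.88 and 12.92.

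Desmosome and hemidesmosome genes were called higher in EpH4 in 7 of 14 and higher in NMuMG in 0, with a median difference of 1.45. Evpl, encoding envoplakin of the cornified envelope, was at 8.10 and 8.23 against 3.99 and 5.12. Itgb4, the integrin chain of hemidesmosomes, was at 8.95 and 9.36 in EpH4 and at 6.55 and 5.83 in NMuMG, a 7.80-fold difference. Pkp3 and Pkp2, the desmosomal plakophilins, were 9.45-fold and 5.13-fold higher in EpH4, and the desmosomal cadherin gene Dsg2 4.66-fold. Perp, a desmosomal protein gene under p53 control, was at 12.41 and 12.27 against 10.61 and 9.92.

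Keratins differed by member. Of 12 tested keratin genes 4 were called higher in EpH4 and 1 higher in NMuMG, and 7 were not called. Krt14, the basal keratin, was at 10.22 and 11.09 in EpH4 and 3.64 and 4.42 in NMuMG, at least 41.9-fold higher (difference 6.62 ± 0.46, adjusted p = 2.69e-05). Its usual partner Krt5 was at 6.37 and 6.83 against 6.04 and 6.66 and was not called (adjusted p = 0.480). Krt7, a keratin of glandular ducts, was at 12.91 and 13.03 against 7.32 and 7.71. Krt19, a luminal keratin, showed the opposite order, dim at 4.52 and 4.78 in EpH4 and at 9.11 and 8.52 in NMuMG, at least 11.7-fold higher there.

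Regulators and enzymes of the epithelial state followed the junction genes. Of 23 tested, 14 were called higher in EpH4 and 1 higher in NMuMG, with a median difference of 1.86, the highest of the 28 gene lists with at least 10 tested members. Esrp1, the epithelial splicing regulator, was at 12.02 and 12.10 in EpH4 and at 4.51 and 3.64 in NMuMG, at least 110.8-fold higher. Ap1m2, the epithelial subunit of the AP-1B sorting adaptor, was at 10.24 and 10.19 against 4.12 and 4.33. Rab25, a small GTPase of apical recycling, was at 10.56 and 10.33 against 4.81 and 4.57. St14, encoding the membrane protease matriptase, and Spint1, encoding its inhibitor HAI-1, were both higher in EpH4, at 10.76 and 10.85 against 4.94 and 5.88, and at 10.77 and 11.13 against 5.84 and 6.04. Among transcription factors, Grhl2 was at 7.98 and 8.04 against 5.94 and 6.72, Ovol1 at 7.20 and 6.73 against 5.04 and 4.98, and Gata3, a luminal fate factor, at 8.37 and 8.04 against 5.54 and 3.88. All 3 were called, Grhl2 with a difference of 1.68 ± 0.37 (adjusted p = 0.00669). The Grhl2 call was lost without the stimulated EpH4 or the resting NMuMG array and in the treat test. The call of Ovol1, which was dim on both NMuMG arrays, was also lost in the treat test. Foxa1, the pioneer factor of luminal, hormone-responsive cells, was the exception, at 5.99 and 5.67 in EpH4 and 10.12 and 9.76 in NMuMG, 17.3-fold higher in NMuMG.

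Several of these genes carry an E-box in the DNA just before their start. The E-box CACCTG, which reads CAGGTG on the other strand, is the kind of site that ZEB and SNAIL proteins are known to bind. It was searched on both strands of the 250 bases before the RefSeq start (build GRCm38.p6, 1 entry per gene) in 10146 tested genes that matched an entry. It was present in 15.5% of them and in 17.1% of all 27025 entries. Among called genes it was present in 237 of 1243 (19.1%) higher in EpH4 and in 112 of 846 (13.2%) higher in NMuMG. For genes at least 4-fold apart in both states the shares were 76 of 314 (24.2%) and 38 of 280 (13.6%). Median GC content was 60.0% and 60.4% in the 2 called sets and 60.0% over the tested genes. A match is a run of letters and not evidence of binding, and these shares are a description. The sequences of 3 genes high in EpH4 that hold several copies, and of Vim, which holds none, are shown to let the copies be seen in place, each ending at the base before the start, with the motif in capitals. They are Epcam at chr17:87635729-87635978 (plus strand), Rab25 at chr3:88548280-88548529 (minus strand), Ap1m2 at chr9:21312334-21312583 (minus strand) and Vim at chr2:13574061-13574310 (plus strand).
Epcam: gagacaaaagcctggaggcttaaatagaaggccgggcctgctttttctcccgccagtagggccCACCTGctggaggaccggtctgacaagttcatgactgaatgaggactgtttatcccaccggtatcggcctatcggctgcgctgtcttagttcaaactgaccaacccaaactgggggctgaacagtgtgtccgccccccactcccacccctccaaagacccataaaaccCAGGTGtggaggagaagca
Rab25: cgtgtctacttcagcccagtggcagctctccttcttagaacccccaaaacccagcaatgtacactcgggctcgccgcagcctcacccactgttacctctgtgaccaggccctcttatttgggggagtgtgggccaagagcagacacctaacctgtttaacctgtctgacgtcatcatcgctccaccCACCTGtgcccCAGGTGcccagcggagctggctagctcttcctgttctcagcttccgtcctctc
Ap1m2: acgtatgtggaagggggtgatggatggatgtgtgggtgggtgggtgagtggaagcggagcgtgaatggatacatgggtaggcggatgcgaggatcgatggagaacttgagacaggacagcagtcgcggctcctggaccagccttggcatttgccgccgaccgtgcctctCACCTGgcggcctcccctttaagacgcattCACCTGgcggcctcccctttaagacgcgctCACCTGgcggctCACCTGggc
Vim: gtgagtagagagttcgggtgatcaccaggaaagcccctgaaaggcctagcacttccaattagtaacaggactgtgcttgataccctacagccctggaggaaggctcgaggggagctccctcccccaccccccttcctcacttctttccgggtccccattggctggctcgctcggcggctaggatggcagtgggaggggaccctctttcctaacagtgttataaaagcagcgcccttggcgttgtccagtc
Epcam and Rab25 hold 2 copies each and Ap1m2 holds 4. Not every strongly higher gene holds one, since none was found in this window of Cldn3 or Cldn7.

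Mesenchymal genes differed mostly in the opposite direction. Of 28 tested markers, 11 were called higher in NMuMG and 4 higher in EpH4, with a median difference of -0.88. Vim, encoding the mesenchymal filament protein vimentin, showed the largest difference of any gene named here, with 4.02 and 4.19 in EpH4 against 13.31 and 13.47 in NMuMG. Both EpH4 values were dim and both NMuMG values were near the top of the scale, as were those of the kidney lines (13.20 to 13.36). The difference was -9.28 ± 0.10 (adjusted p = 3.11e-09), at least 279.6-fold, and the 2 other probe sets of Vim shared its direction. Cdh2, encoding N-cadherin, was at 5.38 and 5.16 against 12.43 and 12.55, at least 143.5-fold higher in NMuMG. Lox, the collagen and elastin cross-linking oxidase, was at 4.09 and 5.28 against 12.10 and 12.41, while in the kidney lines it lay between 4.24 and 5.69. Fstl1, a secreted follistatin-like glycoprotein, was at 3.96 and 3.91 against 8.93 and 10.19, and Tagln, the actin-binding protein SM22, at 3.99 and 4.84 against 8.19 and 10.29.

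Some mesenchymal genes were higher in EpH4. Postn, encoding the matrix protein periostin, was at 11.77 and 12.23 in EpH4 and 6.06 and 5.69 in NMuMG, a 69.7-fold difference. Tpm2, a tropomyosin of stress fibres, was at 11.28 and 11.72 against 6.38 and 6.81. Fn1, encoding fibronectin, was high on all 4 arrays, at 12.79 and 12.97 against 13.26 and 13.36, and was not called. Nt5e, the ecto-nucleotidase CD73, was singled out after its values were seen. It was steady at 10.60 and 10.89 in EpH4 and was at 3.71 in resting and 8.15 in stimulated NMuMG, so its difference of 4.82 ± 1.24 (adjusted p = 0.0130) narrowed after stimulation.

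Transcription factors of EMT were called higher in NMuMG in 8 of 23 and higher in EpH4 in 3. Zeb1 was at 6.99 and 6.87 in EpH4 and 10.97 and 10.86 in NMuMG, 15.9-fold higher in NMuMG (difference -3.99 ± 0.15, adjusted p = 3.11e-06), and Zeb2 was at 5.40 and 6.12 against 8.38 and 9.50. Hmga2, a chromatin protein of embryonic tissue, was at 7.51 and 8.57 against 11.38 and 12.14. Sox11 and the homeobox gene Prrx2 were dim in EpH4 and at 7.82 and 8.75, and 8.20 and 8.40, in NMuMG. Members of the SNAIL and TWIST families were mixed. Snai1 was at 6.58 and 6.99 against 6.71 and 8.39, Snai2 at 7.21 and 7.02 against 6.12 and 7.50, and Twist1 at 7.03 and 6.77 against 7.35 and 8.02, and none of these 3 was called (adjusted p = 0.144, 0.541 and 0.0814). Twist2 was called higher in NMuMG, at 5.52 and 5.39 against 7.0 and 7.01, and Snai3 higher in EpH4, at 6.41 and 6.44 against 5.00 and 5.36, both named after their values were seen. Id4, an inhibitor of helix-loop-helix factors, was higher in EpH4, at 6.96 and 6.38 against 4.13 and 4.35.

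**Figure D2:**
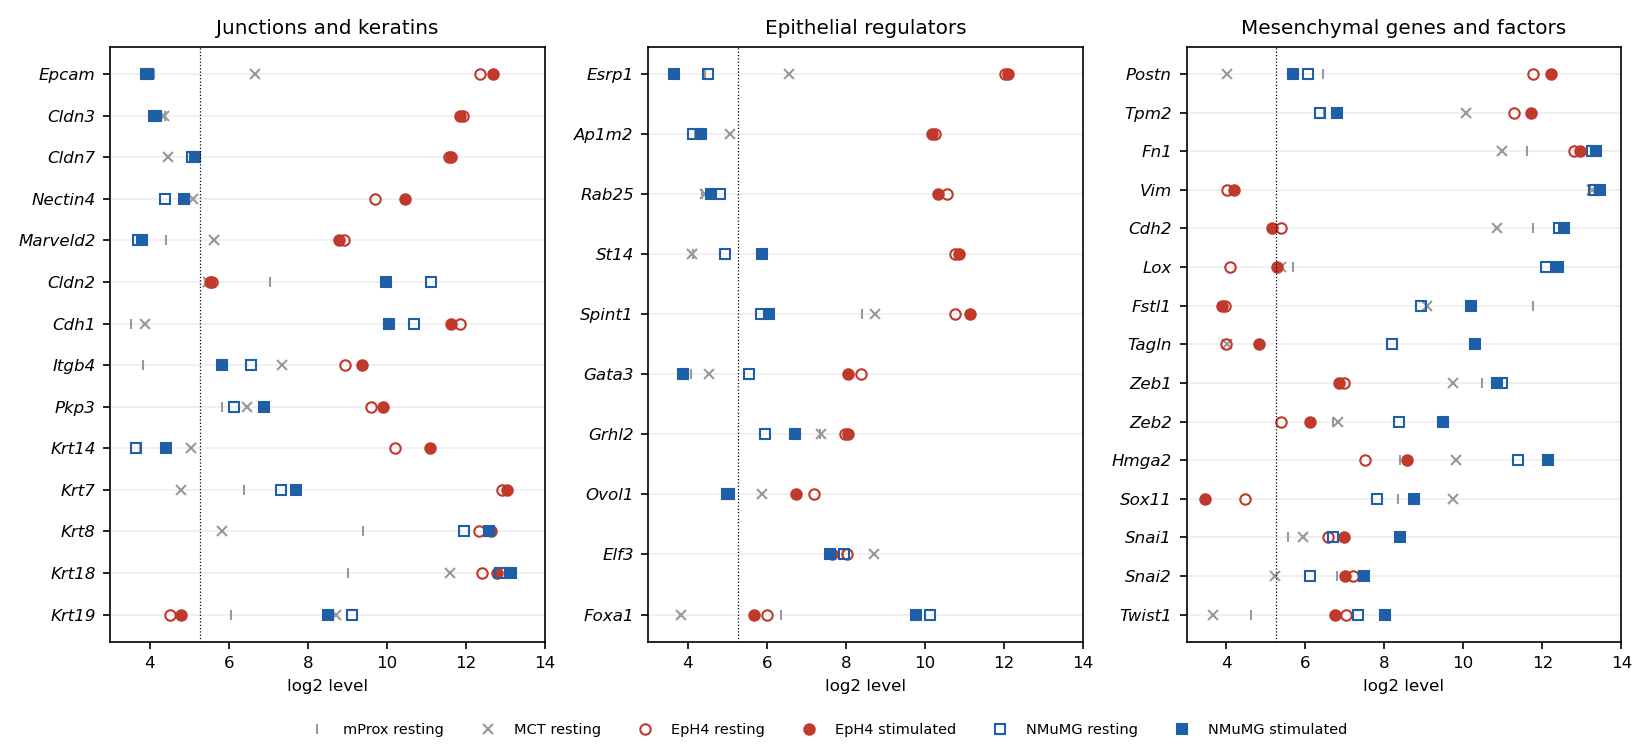
Log2 levels of junction and keratin genes, epithelial regulators, and mesenchymal genes with EMT factors, 1 symbol per array: circles for EpH4, squares for NMuMG (open at rest, filled after stimulation) and grey marks for the resting kidney lines, with the filter level dotted. The 2 lines sit at opposite ends for Epcam, Esrp1, Vim and Cdh2, and overlap or nearly so for Krt8, Krt18, Elf3 and Snai2.

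Mammary lineage genes were split in both directions. Of 14 tested luminal genes 2 were called higher in EpH4 and 4 higher in NMuMG, and of 23 basal and myoepithelial genes 3 and 5. With shares of 12.3% and 8.52% over all tested genes, the EpH4 counts of both lists were near background. EpH4 was higher for the luminal genes Gata3 and Erbb3 and for the basal genes Krt14, Itgb4 and Sfn. Sfn, encoding 14-3-3σ, was at 8.01 and 10.26 in EpH4 and dim at 4.13 and 4.38 in NMuMG. NMuMG was higher for the luminal genes Foxa1, Krt19, Wnt4 (4.22 and 4.30 against 7.96 and 6.72) and Cd14 (7.89 and 8.02 against 11.09 and 9.81), and for the basal genes Tagln, Sparc (10.23 and 10.38 against 12.80 and 12.73) and Vcan (4.50 and 4.99 against 8.41 and 9.25). Esr1, the oestrogen receptor gene, was low in both lines, at 5.71 and 5.54 against 5.36 and 4.61. Of 12 tested milk genes 3 were higher in EpH4: Btn1a1, encoding butyrophilin of the milk fat membrane, at 7.89 and 7.44 against 5.39 and 5.50, Xdh, its partner xanthine dehydrogenase, at 10.88 and 10.39 against 9.75 and 8.13, and the lipogenic gene Thrsp at 6.66 and 6.75 against 3.79 and 5.45. The Thrsp call was lost with an offset of 50, in the treat test and without the resting EpH4 array. Mfge8, encoding lactadherin, was 2.51-fold higher in NMuMG, a call that was lost under median scaling, on the values as deposited and in the treat test.

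Basement membrane and matrix genes showed a division within families. Collagens were called higher in NMuMG in 9 of 27 and higher in EpH4 in 2. Col4a1 and Col4a2, the ubiquitous collagen IV chains, were at 5.63 and 5.63 (Col4a1) and 4.96 and 5.74 (Col4a2) in EpH4 against 11.79 and 11.86, and 10.19 and 10.26, in NMuMG. Col4a5, a chain of specialised basement membranes, had the reverse order, at 10.99 and 10.60 in EpH4 and dim at 3.96 and 3.75 in NMuMG, at least 46.3-fold higher in EpH4. Col18a1, whose product yields endostatin, was at 5.15 and 6.09 against 11.58 and 11.74. The fibrillar chain gene Col5a1 was 15.2-fold and the microfibrillar chain gene Col6a2 at least 14.1-fold higher in NMuMG. Of 24 tested laminin and basement membrane genes 2 were called higher in EpH4 and 3 higher in NMuMG. Over all tested genes the shares were 12.3% and 8.52%, so this list as a whole did not stand out. The 2 higher in EpH4 were Lamb3 and Lama3, both chains of laminin-332, the ligand of the hemidesmosome. Lamb3 was at 10.20 and 11.27 against 5.56 and 6.71, and Lama3 at 8.09 and 9.59 against 5.11 and 5.87. The matricellular genes Ccn4 and Ccn5 and the integrin ligand gene Npnt were higher in NMuMG, Npnt at 7.87 and 7.97 against 4.07 and 3.45, although 1 of 3 other probe sets did not share its direction. Integrins were called in 3 of 15, and this list did not stand out either. Itgb4 was higher in EpH4, and Itgav and Itgb5, chains of RGD-binding receptors, were 2.43-fold and 2.91-fold higher in NMuMG. The Itgb5 call was lost on the values as deposited. The Itgav call was lost there, under median scaling, on the mean of probe sets and in the treat test.

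Proteases and their inhibitors were called higher in EpH4 in 8 of 32 and higher in NMuMG in 2. The median difference of the 32 went the other way, at -0.31 against 0.13 over all tested genes, so the list as a whole was not higher in EpH4. Serpinb5, encoding maspin, was at 9.67 and 10.12 in EpH4 and dim at 5.16 and 5.06 in NMuMG. Mmp9, a gelatinase, was at 7.68 and 10.47 in EpH4 and 5.47 and 4.02 in NMuMG, a difference that was wider after stimulation. Klk8 and Adam8, a kallikrein and a metalloprotease, were at least 5.79-fold and 6.36-fold higher in EpH4, and Timp3, a metalloprotease inhibitor bound to matrix, was 4.08-fold higher, a call lost in the treat test and without the stimulated EpH4 or resting NMuMG array. Plat, encoding tissue plasminogen activator, was at 6.18 and 6.31 in EpH4 and 9.35 and 9.37 in NMuMG, although its 1 other probe set did not share that direction.

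Receptors for the 2 factors used in the stimulation were measured in both lines. For TGF-β, the signalling receptor genes Tgfbr1 (9.37 and 9.43 in EpH4, 9.68 and 9.87 in NMuMG) and Tgfbr2 (11.04 and 10.90, 12.21 and 11.79) were not called, and nor was the co-receptor gene Tgfbr3 (7.39 and 8.13, 6.62 and 6.29). For Tgfbr2 the difference of -1.03 ± 0.19 passed the p-value (adjusted p = 0.00276) but was under 2-fold after stimulation. The transducer gene Smad3 was at 9.81 and 9.77 against 10.72 and 10.38, and Smad7, encoding the inhibitory SMAD, at 9.90 and 10.84 against 9.48 and 10.27. The pathway list as a whole was called in 8 of 34 genes, 3 higher in EpH4 and 5 in NMuMG, with a median of 0.09. Against the 12.3% and 8.52% of all tested genes, it stood out little. The 5 higher in NMuMG were Tgfb1, Ltbp1, Ltbp3, Ltbp4 and Smad6, an inhibitory SMAD gene that was 2.19-fold higher. Tgfb1 itself was at 7.59 and 8.0 in EpH4 and 9.96 and 10.51 in NMuMG, 5.41-fold higher there. Its 1 other probe set did not share that direction, and the call was lost on the mean of probe sets. Ltbp1, Ltbp3 and Ltbp4, which encode the proteins that hold latent TGF-β in the matrix, were 4.37-fold, 2.52-fold and 2.97-fold higher in NMuMG. All 3 calls were lost on the values as deposited, and those of Ltbp3 and Ltbp4 also in the treat test. Inhbb, an activin chain gene, and Eng, encoding endoglin, were 3.41-fold and 2.48-fold higher in EpH4. The Inhbb call was lost with an offset of 1, in the treat test and without the resting EpH4, stimulated EpH4 or resting NMuMG array, and the Eng call on the mean of probe sets and in the treat test.

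Genes of the EGF pathway differed in both directions. Egfr was at 8.60 and 8.19 in EpH4 and at 10.28 and 10.16 in NMuMG, a difference of -1.82 ± 0.17 (adjusted p = 0.000106). The groups did not overlap, and 4 of the 5 other bright probe sets had the same sign in both states, but the call was lost on the values as deposited and on the mean of probe sets. Erbb2 was at 8.28 and 8.30 against 8.70 and 8.56 and was not called. Erbb3, the neuregulin receptor, had the reverse order, at 9.62 and 9.76 in EpH4 and 6.09 and 6.05 in NMuMG, 12.3-fold higher in EpH4. Of the ligands, Epgn (epigen) was at least 3.40-fold higher in EpH4, while Hbegf was at 7.66 and 8.46 against 10.46 and 10.68, 5.70-fold higher in NMuMG, and Nrg1 2.32-fold higher in NMuMG. The Nrg1 call was lost on the values as deposited, under median scaling, in the treat test and without the stimulated EpH4 or resting NMuMG array. Named genes of negative feedback on these receptors and on ERK were higher in NMuMG: Lrig1 at 7.17 and 7.74 against 10.34 and 10.58 (1 of its 2 other probe sets did not share the direction), Spry2 at 7.54 and 7.72 against 9.84 and 10.06, and the ERK phosphatase genes Dusp6, at 6.51 and 7.44 against 10.51 and 10.27, and Dusp4, 2.82-fold, the last lost on the values as deposited and in the treat test. The list of FGF and ERK feedback genes was called in 5 of 18, with 2 higher in EpH4, Fgfbp1 and Fgf13. The Fgfbp1 call was lost in the treat test and without the resting EpH4, stimulated EpH4 or stimulated NMuMG array. The receptor genes Fgfr1 and Fgfr2 differed less, Fgfr2 at 9.33 and 8.85 against 8.62 and 6.97, and were not called.

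In the BMP list 2 of 18 genes were higher in EpH4 and 3 in NMuMG, against 12.3% and 8.52% of all tested genes, so the EpH4 count was near background. The antagonist and modulator genes Nbl1 and Bmper were 4.31-fold and 5.69-fold higher in NMuMG, the extracellular modulator gene Twsg1 2.61-fold higher in EpH4, and the BMP target gene Id1 3.43-fold higher in NMuMG. The Nbl1 call was lost in the treat test, the Id1 call on the values as deposited, and the Twsg1 call with an offset of 50, on the mean of probe sets and in the treat test.

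Wnt ligands differed by member. Of 35 tested Wnt and Notch genes 9 were higher in EpH4 and 6 in NMuMG. Wnt10a, an ectodermal canonical ligand, was at 10.15 and 10.25 in EpH4 and 5.97 and 6.08 in NMuMG, 18.1-fold higher. Wnt7a, Wnt5a and Wnt11 were also higher in EpH4, Wnt7a at 9.28 and 10.05 against 6.73 and 7.60. Wnt4, a ligand of hormone-responsive luminal cells, and the receptor gene Fzd1 were higher in NMuMG, Fzd1 at 9.71 and 9.94 against 7.71 and 7.30.

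Homeobox genes of lineage were called higher in EpH4 in 9 of 26 and higher in NMuMG in 3. Msx2, a factor of ectodermal organs including the mammary bud, was at 11.16 and 10.90 against 7.95 and 7.66. Irx2 was at 10.10 and 10.25 against 6.79 and 7.18, and Irx1 at 9.33 and 9.80 against 6.58 and 7.31. Tbx15 and Eya1 were at least 4.11-fold and 6.07-fold higher in EpH4, whereas Eya4 was at 5.29 and 5.26 in EpH4 and 11.65 and 11.14 in NMuMG. Hox genes were called in 2 of 23, Hoxb4 higher in EpH4 (7.44 and 7.40 against 5.28 and 5.48) and Hoxa9 higher in NMuMG. The brighter of the Hoxa9 probe sets was at 4.97 and 6.12 in EpH4 and 6.28 and 7.18 in NMuMG, and the other was dim on the 4 mammary arrays. The sign for the gene turned with an offset of 50 before log2, a setting in which the probe set was chosen anew. In the kidney lines 23 of 33 Hox genes were not dim in each, against 12 in EpH4 and 10 in NMuMG. Median levels of the 33 were 5.00 in EpH4 and 4.83 in NMuMG, both dim, against 7.40 in mProx and 6.60 in MCT. A tested Hox gene can thus have passed the filter through the kidney lines. Where both mammary lines are dim a call is hardly possible, so the low count does not show that they are alike.

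Chemokine and cytokine genes were called higher in NMuMG in 9 of 36 and higher in EpH4 in 3. Ccl2, the monocyte attractant, was at 4.05 and 4.48 in EpH4 and 12.92 and 12.83 in NMuMG. Both EpH4 values were dim, and the difference was -8.61 ± 0.36 (adjusted p = 3.79e-06), at least 195-fold. Its neighbour Ccl7 was at 5.43 and 5.22 against 10.77 and 9.87, and Ccl9 at 5.64 and 5.14 against 11.48 and 10.94. The neutrophil attractants Cxcl1 and Cxcl5 were at 6.94 and 6.87 (Cxcl1) and 7.11 and 6.88 (Cxcl5) in EpH4 against 12.23 and 11.79, and 12.61 and 11.78, in NMuMG. Cxcl12, the ligand of CXCR4, was 17.9-fold higher in NMuMG. The kidney lines held intermediate Ccl2, from 7.51 to 9.97. Complement and acute-phase genes had the lowest median of those lists, -1.06, with 6 of 14 higher in NMuMG and 1 in EpH4. Cp, encoding ceruloplasmin, was at 7.99 and 7.57 against 12.44 and 11.64, Saa3 at 5.10 and 6.61 against 11.35 and 9.59, and the complement protease genes C1s1 and C1ra were at least 17.3-fold and 5.64-fold higher in NMuMG. Clu, encoding clusterin, was at 9.16 and 10.40 against 12.33 and 12.88.

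Antigen presentation differed in the opposite direction, with 11 of 16 tested genes higher in EpH4 and 1 higher in NMuMG, and a median of 1.64. Psmb8, an immunoproteasome subunit, was at 9.94 and 9.92 in EpH4 and dim at 3.70 and 5.07 in NMuMG, at least 25.3-fold higher. Psmb9, its partner subunit, was at 7.94 and 8.08 against 5.13 and 5.44, and Tap2, a subunit of the peptide transporter, at 9.22 and 9.26 against 6.54 and 4.66. H2-K1, a class I heavy chain gene, was at 11.84 and 11.87 against 8.94 and 8.86, and its 3 other probe sets shared the direction, although class I genes are near-identical copies that a probe may not separate. Cd74, the invariant chain of class II, was 4.69-fold higher in EpH4. Cd1d1, which presents lipids, was the exception, at 5.17 and 5.54 against 8.18 and 8.19. Interferon-stimulated genes as a group were split, with 6 of 30 higher in EpH4 and 4 in NMuMG and a median of 0.11. Igtp, an immunity-related GTPase, was at 8.44 and 8.27 against 6.55 and 4.69, and Ddx58, encoding the RNA sensor RIG-I, 3.07-fold higher in EpH4. For Ddx58, 1 of 2 other probe sets did not share the direction, and the call was lost in the treat test. Ifit2 was at 8.93 and 8.41 in EpH4 and 10.87 and 9.84 in NMuMG, and Irgm1 was 3.14-fold higher in NMuMG. Both calls were lost in the treat test, and that of Irgm1 also on the values as deposited.

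The genes of antigen processing that moved together lie side by side. Psmb9, Tap1, Psmb8 and Tap2 are consecutive in the RefSeq order of the mouse genome within the class II region, and all 4 were higher in EpH4. Tap1, named for its position after its values were seen, was at 8.95 and 8.76 against 7.05 and 6.11. The next tested gene in that direction beyond Tap2 was the class II gene H2-Eb1, which was also called higher in EpH4, at 6.63 and 7.03 against 5.28 and 5.35. Between them H2-Ob, H2-Ab1 and H2-Aa were under the filter. On the Psmb9 side the class II chaperone genes H2-DMb2 (6.02 and 6.0 against 4.88 and 5.73) and H2-DMa (6.95 and 6.78 against 5.61 and 5.82) were not called, although both were higher in EpH4 in each state. Beyond them Brd2, a ubiquitous chromatin reader, was at 11.01 and 10.95 against 10.83 and 10.62 and was not called. Psmb9 and Tap1 face away from each other, and the stretch between their starts, at chr17:34187331-34187555 of GRCm38.p6 and read on the Tap1 strand, is shown because both genes start from it. It holds the E-box motif once, in capitals.
Tap1 and Psmb9: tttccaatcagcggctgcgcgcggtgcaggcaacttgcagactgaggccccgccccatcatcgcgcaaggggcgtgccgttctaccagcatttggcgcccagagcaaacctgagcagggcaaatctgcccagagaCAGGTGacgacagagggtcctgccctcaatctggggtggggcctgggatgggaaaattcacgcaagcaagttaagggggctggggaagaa

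**Figure D3:**
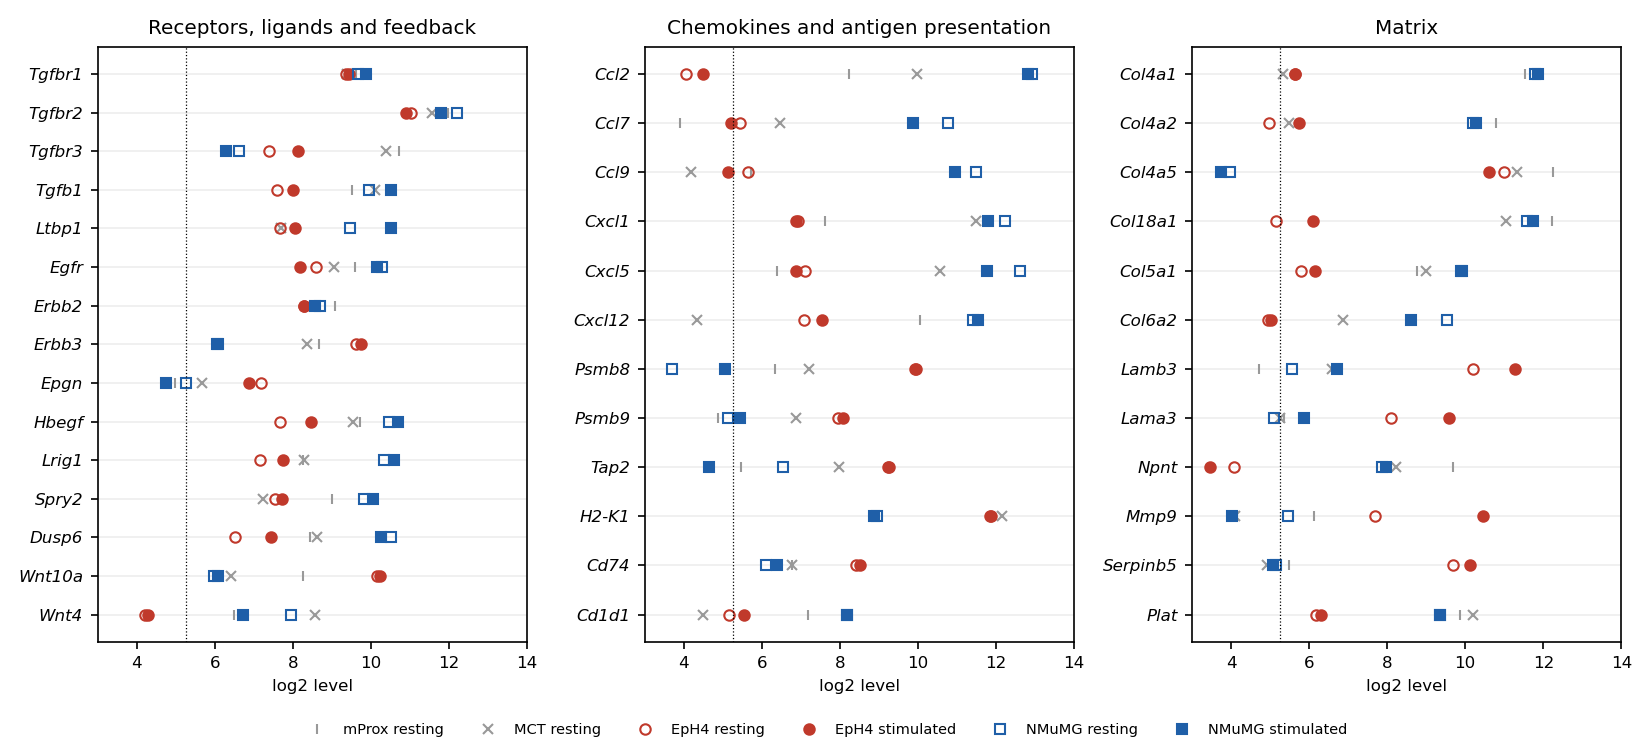
Log2 levels of receptors, ligands and feedback genes, of chemokines and antigen presentation genes, and of matrix genes, with symbols as in the plot of junction genes. Chemokines lie to the left in EpH4 and to the right in NMuMG, antigen presentation genes other than Cd1d1 the reverse, and Col4a5 is opposite to Col4a1 and Col4a2.

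In the p53 and CDK inhibitor list 6 of 36 genes were called higher in EpH4 and 4 higher in NMuMG. Against the 12.3% and 8.52% of all tested genes, this list as a whole stood out little. Cdkn2b, encoding the CDK4 inhibitor p15INK4b, a known TGF-β target, was at 4.10 and 3.73 in EpH4 and 11.63 and 11.78 in NMuMG, at least 86.9-fold higher there (difference -7.79 ± 0.43, adjusted p = 1.08e-05). Cdkn2a, encoding p16INK4a and p19ARF, was at 5.55 and 5.72 against 9.82 and 9.69, 17.4-fold higher in NMuMG. The kidney lines were between 9.02 and 10.58 for Cdkn2b. The 2 genes are neighbours. Mtap, the next gene on one side, was at 10.86 and 10.81 in EpH4 and 11.72 and 11.51 in NMuMG and was not called, and Dmrta1, the next on the other, was dim on all 8 arrays. Pmaip1, encoding the p53-induced death factor NOXA, was at 3.64 and 3.44 in EpH4 and 10.03 and 10.96 in NMuMG, and Ccnd2, encoding cyclin D2, at 6.38 and 6.43 against 11.46 and 11.42. Mycn and the p53 target Eda2r were higher in EpH4, Mycn at 8.40 and 8.80 against 5.44 and 4.42.

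**Figure D4:**
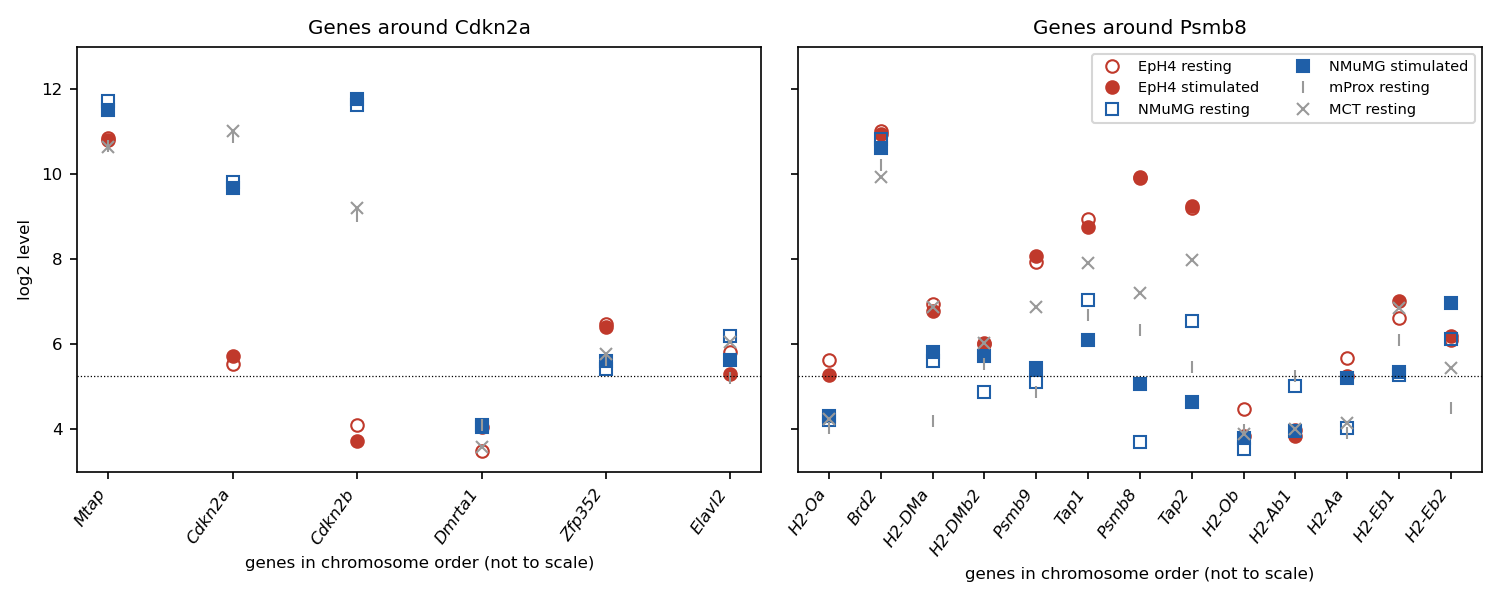
Log2 levels of genes in chromosome order around Cdkn2a and around Psmb8, 1 symbol per array (circles EpH4, squares NMuMG, grey marks resting kidney lines), with the filter level dotted and distances not to scale. EpH4 is low for Cdkn2a and Cdkn2b but not for Mtap, and high for Psmb9, Tap1, Psmb8 and Tap2 but level with NMuMG for Brd2.

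Imprinted genes, expressed from 1 parental copy, were called in 8 of 19, with 6 higher in NMuMG. Peg3 was at 5.34 and 5.43 against 10.65 and 9.81, Sgce, encoding a sarcoglycan, at 4.48 and 4.02 against 9.04 and 8.91, Grb10, an adaptor that restrains growth signalling, at 5.51 and 6.0 against 9.40 and 8.89, and Impact and Kcnq1ot1 were 4.16-fold and 5.36-fold higher in NMuMG. Phlda2 was at least 3.43-fold higher in EpH4. Xist, the RNA of the inactive X, was bright in both lines, and the Y-linked genes Eif2s3y, Kdm5d and Uty were dim on all 4 arrays. Its chosen probe set was at 9.89 and 9.56 in EpH4 and 11.91 and 11.33 in NMuMG, but another gave the opposite sign.

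Metabolic and transport genes were split as well. Of 39 glutathione and xenobiotic genes 5 were higher in EpH4 and 9 higher in NMuMG. Over all tested genes the shares were 12.3% and 8.52%, so the EpH4 count was near background. Nqo1, a quinone reductase driven by NRF2, was at 8.14 and 7.82 in EpH4 and dim at 3.96 and 4.84 in NMuMG, and Gstt3, a glutathione transferase gene, at 8.68 and 8.59 against 3.73 and 3.99. The efflux pump gene Abcc3 was at 5.13 and 4.97 against 10.33 and 9.99, and the aldo-keto reductase gene Akr1c13 at least 11.1-fold higher in NMuMG. Aldh1a1, a retinal dehydrogenase, and Sult1c2, a sulfotransferase, were at 10.25 and 11.04 in resting NMuMG but at 6.40 and 7.36 after stimulation. In EpH4 Aldh1a1 was dim in both states, at 3.57 and 3.62, so its difference narrowed after stimulation, and its call was lost without the resting EpH4 array. Among channels and transporters 5 of 21 were higher in EpH4 and 4 in NMuMG. Gjb2, encoding connexin 26, was at 10.65 and 10.99 against 4.93 and 5.77, the zinc transporter gene Slc39a8 at 8.17 and 7.97 against 3.88 and 3.57, and the calcium channel gene Trpv4 at least 5.44-fold higher in EpH4. Slc12a2, encoding the chloride transporter NKCC1, and Panx1, a pannexin, were 5.47-fold and at least 9.40-fold higher in NMuMG.

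The 20 genes furthest apart in each direction, ranked by the smaller of the 2 differences, held further members of no list. Higher in EpH4 were Crabp2, a carrier of retinoic acid, at 11.98 and 12.14 against 3.61 and 3.64, and Kcnk1, a potassium channel gene, at 11.24 and 11.53 against 3.81 and 3.93. Mapk13, encoding p38δ, was at 10.85 and 10.76 against 3.85 and 4.16, and Cldn9, another claudin, at 10.59 and 10.87 against 3.73 and 3.84. Stbd1, a glycogen-binding protein gene, Car6, a secreted carbonic anhydrase gene, Rhox5, an X-linked homeobox gene, Dmrta2 and Scara5, a ferritin receptor gene, completed that group with at least 16.6-fold to 65.0-fold differences. Higher in NMuMG were Serpinb6b, a serpin gene, at 4.28 and 3.57 against 11.29 and 11.11, Dpp7, a lysosomal dipeptidase gene, at 4.64 and 3.73 against 11.46 and 11.03, and Glipr1 at 5.71 and 5.41 against 12.52 and 12.53. Cyba, encoding the p22phox subunit of NADPH oxidases, was at 3.78 and 3.71 against 10.70 and 10.40. Tm4sf4, a tetraspanin-like gene, Ccdc80, a matrix protein gene, Armcx1, the liver and endoderm factor gene Onecut2, Pkhd1, encoding fibrocystin, Plcb4, a phospholipase C gene, and Rab12, a small GTPase gene, were dim in EpH4 and between 9.55 and 11.45 in NMuMG.

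**Figure D5:**
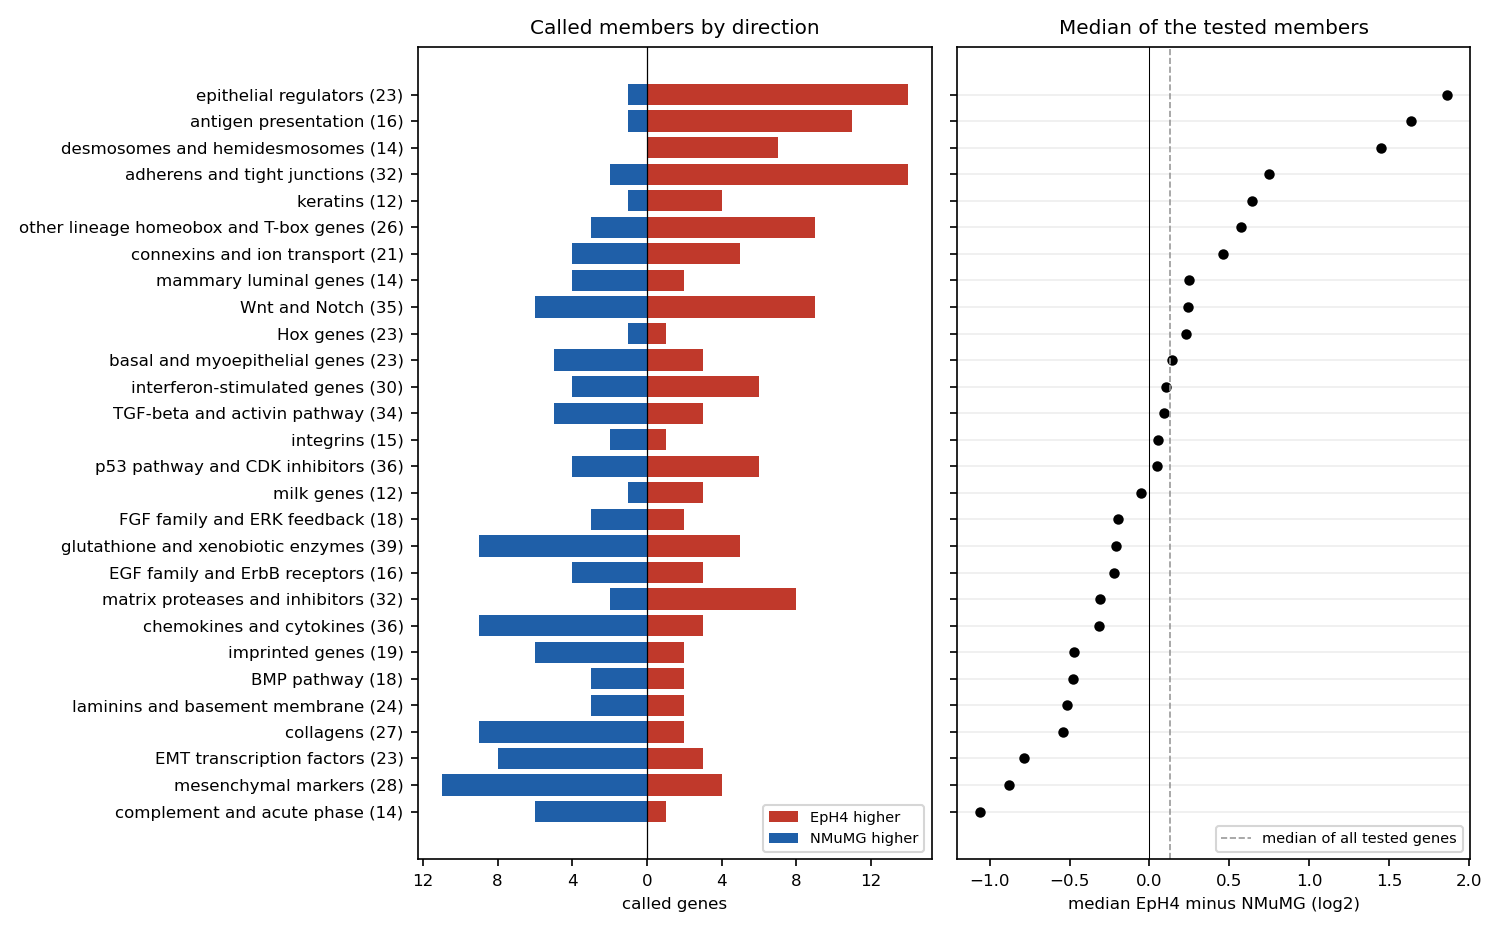
For each gene list, with its number of tested genes in brackets, bars show how many members were called higher in EpH4 (right) and in NMuMG (left), and points the median log2 difference of the tested members, with the median of all tested genes dashed. Epithelial regulators, antigen presentation and junction lists lie at the EpH4 end, and complement, mesenchymal markers and EMT factors at the NMuMG end.

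The kidney lines lay on neither side as a rule. For 584 of the 1543 genes higher in EpH4 (37.8%) both kidney lines lay nearer EpH4, for 534 (34.6%) both lay nearer NMuMG, and for 425 (27.5%) they were split. For the 1071 genes higher in NMuMG both lay nearer NMuMG in 473 (44.2%) and nearer EpH4 in 299 (27.9%), with another 299 (27.9%) split. A stricter count was added after the data were seen: genes dim on both arrays of 1 line and at least 4-fold over the filter level on all 6 arrays of the other 3 lines. It gave 39 genes for EpH4, 8 for NMuMG, 11 for mProx and 4 for MCT. The 39 include Vim, Cyba, Cdkn2b, Pmaip1, Dpp7, Rab12, Ccl2, Fstl1 and Sgce. Genes bright by that measure in 1 line and dim in the other 3 numbered 18 in EpH4, among them Crabp2, Cldn3, Cldn7, Mapk13, Krt14, Rab25 and Ap1m2, and 9 in NMuMG, among them the atypical cadherin gene Fat4 and the apolipoprotein gene Apob. Only tested genes were counted, and such a gene passes the filter on the mean of 8 arrays only through the line where it is high. The counts of 18 and 9 therefore depend on the filter and cannot be set against the counts of genes dim in 1 line. All these counts rest on 1 chosen probe set per gene. The 39 also include Rps20, for which 2 other probe sets, of a type open to cross-hybridisation, lay between 12.93 and 13.28 on all 8 arrays.

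The calls ask for a difference in both states, so how its size moved is a description of genes chosen for being stable. Of the 1543 genes called higher in EpH4 the size of the difference moved by less than 2-fold between the states in 1440 (93.3%), widened after stimulation in 42 and narrowed in 61. Of the 1071 higher in NMuMG it moved by less than 2-fold in 939 (87.7%), widened in 59 and narrowed in 73. The median called difference was 3.22-fold for EpH4 and 3.71-fold for NMuMG. Genes at least 4-fold apart in 1 state and less than 1.5-fold apart in the other were few, 25 at rest only and 24 after stimulation only. Has2, a hyaluronan synthase, was at 6.92 and 7.12 in EpH4 but at 4.50 at rest and 7.56 after stimulation in NMuMG. The value of 4.50 is dim, and raised to the filter level it would leave a resting difference under 4-fold. Lcn2, encoding the siderophore-binding lipocalin 2, was at 9.48 and 8.87 in EpH4 against 11.95 at rest and 8.96 after stimulation in NMuMG. Mab21l4 was at 9.83 and 9.22 against 6.49 and 9.61. Pdzrn3, a ubiquitin ligase gene, was alike at rest (7.59 against 7.89) and apart after stimulation (8.87 against 5.28). These values come from 1 array each. Such genes cannot be called, since a call asks for a 2-fold difference in both states.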

How the data were processed

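Total RNA from 8 cultures was labelled with biotin and hybridised to 1 Affymetrix array each. The deposited values are linear signal intensities, which the authors made with MAS5, per the submitters' processing notes; the scaling target and any between-array step were not given in the sources used here. Median deposited signals ran from 41.5 to 59.6. The number of arrays limits the precision. From 45101 probe sets 64 controls were left out. Symbols came from the platform annotation: of the rest, 34945 had 1 gene, 932 several and 9160 none, and only those with 1 were named. Signals plus 10.6, their 25th percentile, were put on the log2 scale and quantile normalized over the 8 arrays. The brightest probe set stood for a gene, avoiding cross-hybridising types where another existed. Genes with a mean at or above the 40th percentile were tested in limma 3.58.1 (R 4.3.3; lmFit, eBayes with trend) on all 8 arrays, after the code had been tested on simulated data. Named genes were the 20 furthest apart each way, a panel of known EMT genes, up to 6 called members per list with uncalled members for context, and genes that crossed or differed in 1 state. The members, gene lists and markers were chosen with earlier results of these data known. Promoters came from RefSeq, build GRCm38.p6; the array's build was not named there. No sample had a replicate, so p-values rest on differences between lines in their response.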

Additional observations from a re-analysis of the deposited data

Results flagged for a closer look

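A few of the 12570 tested genes had the opposite line order in the 2 states by at least 2-fold each way. They were 9 genes higher in EpH4 at rest and 9 higher in NMuMG at rest. Each of the 6 named here was dim on at least 1 mammary array, so the differences below have no exact size. With dim values raised to the filter level, none of the 6 stayed 2-fold apart each way. The change between states was not tested, since each value comes from 1 array. Such genes cannot be called, since a call asks for the same direction in both states. The EpH4 minus NMuMG difference of Ccl5, a T-cell attracting chemokine gene, was -1.76 at rest and 1.96 after stimulation on the log2 scale. Derl3, a gene of endoplasmic reticulum degradation, had -1.92 and 1.28, and the defensin gene Defa39 had -1.21 and 2.14. Ooep, an oocyte gene, had 1.39 and -1.39, AA414768 had 1.58 and -1.27, and the cystatin-like gene Cstdc2 had 2.27 and -1.23.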

How the results depend on the processing

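Without normalization between arrays there were 2481 genes higher in EpH4 and 600 genes higher in NMuMG, sharing 1538 and 597 with the calls reported. With medians scaled the counts were 2299 and 779. When limma's treat tested against a 2-fold difference, the numbers fell to 695 and 552, and the genes called between mProx and MCT to 295. Leaving out each array in turn gave 1545 to 2030 genes for EpH4, 1075 to 1286 for NMuMG and 986 to 1393 for the kidney pair; where a line was left with 1 array it was assumed to vary like the others and 2-fold was asked of the remaining state only. The other alternatives run (offsets of 1 and 50, no filter, a filter on the mammary mean, dim values floored, the mean of probe sets, no intensity trend, no stimulation term, and fits or normalization on the 4 mammary arrays) kept the counts within 1.5 times. The 2 settings that use the mammary arrays alone give no value for mProx and MCT. Of 171 called named genes 130 kept the same call in every setting. The lost calls were not given above for every gene. Among those left out, Epgn and Phlda2 were lost in the treat test, Pkp2 and Mycn on the mean of probe sets, and Krt14 with an offset of 1. The Hoxa9 difference changed sign with an offset of 50, to 0.0335 (limma adjusted p = 0.893). The brightest probe set was chosen anew in each setting, and the 2 of Hoxa9 had close means, 7.33 and 7.17. The first differed by -1.305 at rest and -1.066 after stimulation, and the other by 0.369 and -0.095. The sign change is therefore not a reversal seen within 1 probe set, and a switch of probe set was not tested separately. Values near the floor of the scale have no exact size, so folds against them are bounds.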

Other observations

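Genes with the same call also lay next to each other elsewhere. In the RefSeq order of tested genes, 9 runs of at least 4 consecutive genes had 1 call. With 12.3% of tested genes called higher in EpH4 and 8.52% higher in NMuMG, some runs can arise without any link between neighbours. How many was not tested. The longest held 7 protocadherin β genes from Pcdhb9 to Pcdhb22, higher in NMuMG, whose near-identical copies leave each value uncertain. Another held the cornified envelope genes Lor, Sprr2k, Sprr1b, Sprr3 and Sprr1a, higher in NMuMG, and another the interferon-induced genes Ifit2, Ifit3 and Ifit1 with Lipa, also higher in NMuMG. That run depends on Ifit3, whose call (limma adjusted p = 0.0387) was lost in 10 of 21 settings, among them no filter, dim values floored and each of the 4 mammary arrays left out. Serpinb6b, Serpinb9, Serpinb9b and Serpinb9g formed a further run of that direction. Nsl1, Batf3, Atf3, Nenf and Pacc1 were a run higher in EpH4.

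The median line difference varied by chromosome. It was 0.43 at rest and 0.37 after stimulation on chromosome 6, where 19.3% of tested genes were called higher in EpH4 and 6.5% higher in NMuMG. On chromosome 14 it was -0.23 and -0.33, with 5.1% and 14.3%. Neighbouring genes are not independent, and no test was made.

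Rps20, a ribosomal protein gene, showed how a probe set can decide a value. Its 2 gene-specific probe sets were at 4.63 and 4.98, and 4.80 and 4.73, in EpH4 against 7.40 and 7.99, and 7.31 and 7.80, in NMuMG. The 2 others, of a type open to cross-hybridisation, were at 13.09 and 13.04, and 12.99 and 12.93, against 13.25 and 13.28, and 13.22 and 13.23. These genes were singled out after their values were seen.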
